A study of Mus musculus with 6 samples.

Results

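Laminins and nidogens, the glycoproteins that build the basement membrane together with type IV collagen, were followed in whole pancreas of Hox6 null and control mouse embryos at embryonic stage E12.5. The members were chosen by symbol and comprised 9 genes: the laminin alpha chains Lama1, Lama5, Lama2 and Lama4, the beta chains Lamb1 and Lamb2, the gamma chain Lamc1, and the nidogens Nid1 and Nid2. Probe sets were taken where the platform annotation gave 1 of these symbols and no other, which left 18 of the 45037 probe sets on the array apart from its controls, and 9 of 18193 genes. The 3 Hox6 null samples and the 3 control samples, labelled wild type, all carried the strain label Bl6. Hox6 is short for a paralogous group of transcription factors, encoded by Hoxa6, Hoxb6 and Hoxc6. Each sample was hybridised to 1 array of its own after amplification from 10 ng of total RNA. The labels call the samples biological replicates without saying how many embryos, which sex or which litters they came from, and the p-values reflect nothing beyond the spread among these arrays.

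A laminin molecule is a cross-shaped trimer of 1 alpha, 1 beta and 1 gamma chain, and its alpha chain decides which receptors it meets. Lama1 and Lama5 encode the alpha chains laid under embryonic epithelia, Lama5 being made by vessels as well, whereas Lama2 is known from mesenchyme, muscle and Schwann cells and Lama4 from endothelium and mesenchyme. Lamb1 and Lamc1 supply the usual partner chains, Lamb2 is the beta chain of vascular smooth muscle, kidney and synaptic basement membranes, and nidogens tie the gamma chain encoded by Lamc1 to the type IV collagen network. In the mouse pancreas the basement membrane separates the branching epithelium from its mesenchyme, and that of the islet vessels is known to be made by endothelial cells.

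In Hox6 null pancreas the epithelial alpha chains and their usual partners averaged within 0.2 log2 units of the control mean, while Lama2 and both nidogens read lower in each null array than in any control array. No laminin or nidogen probe set passed the test over all probe sets: 0 of 18 had an adjusted p under 0.05 (limma, Benjamini-Hochberg), beside 0.00222% of all probe sets in either direction, with the members' adjusted p between 0.205 and 0.928. At an unadjusted p under 0.05, 5 of 18 were lower and 0 higher, beside 6.79% lower and 8.17% higher among all probe sets. With 1 probe set a gene, 0 of 9 passed, beside 0.0715% of all genes, and 3 of 9 had an unadjusted p under 0.05, all lower, beside 8.24% lower among all genes. The null arrays lay below all control arrays for 3 of 9 member genes, beside 11.7% of all genes, and above them for 0, beside 12.2%. Counted over probe sets, they lay below for 6 of 18, beside 9.89% of all probe sets, and above for 1, beside 12.1%. A negative change was found for 6 of 9 member genes, beside 44.0% of all genes. The median log2 change, null minus control, was -0.07 over the 9 members and +0.03 over all genes. Values are log2 levels from robust multi-array averaging (RMA), and levels of different probe sets cannot be ranked against each other, so that only the same probe set is compared between arrays.

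**Figure D1:**
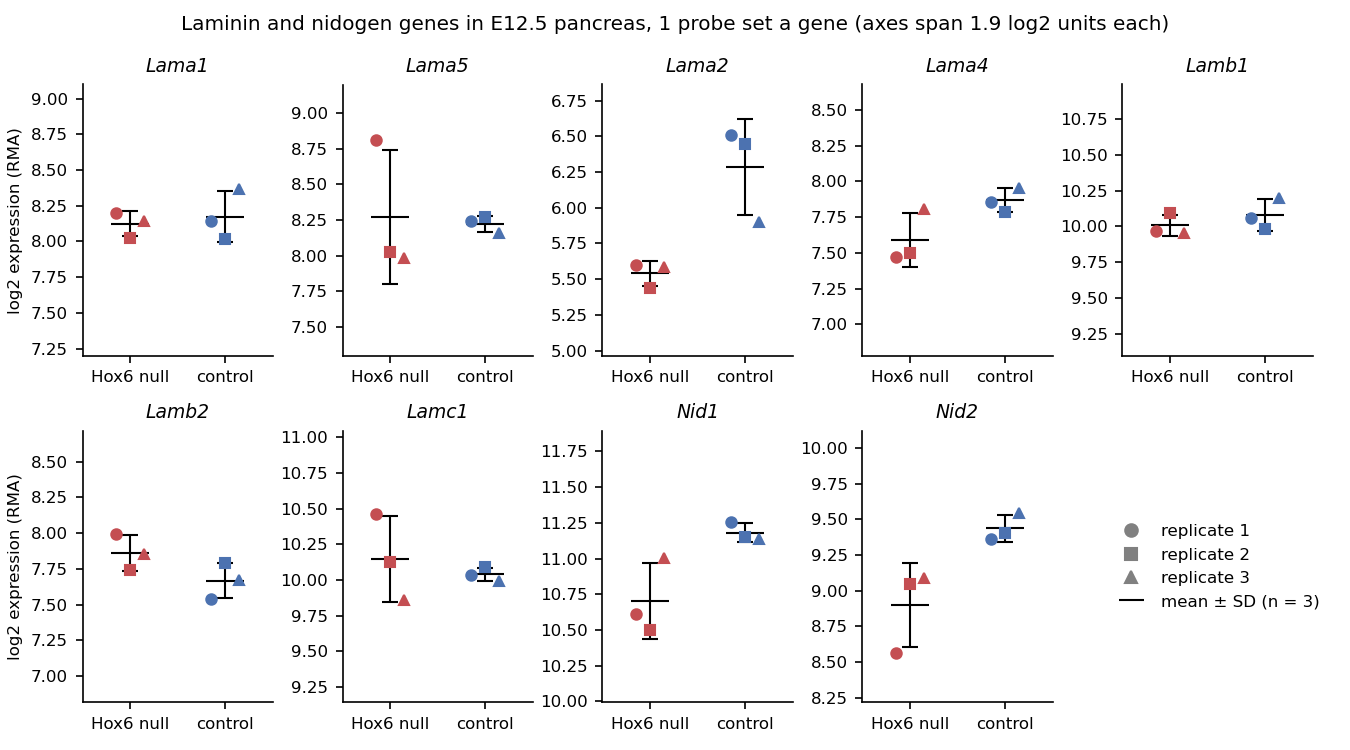
Log2 expression (RMA, vertical axes, all of the same span) of each laminin and nidogen gene in the 3 Hox6 null arrays (red, left) and the 3 control arrays (blue, right), with the probe set of the highest mean for each gene. Black lines give mean ± SD (n = 3). Null and control points are apart for Lama2, Nid1 and Nid2 and overlap for the other 6 genes.

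Some values of the arrays as a whole bear on every result below. Array medians lay between 5.98 and 6.02 in null arrays and between 5.97 and 6.02 in control arrays, and lower quartiles between 4.18 and 4.32 against 4.12 and 4.18. Pearson correlations across probe sets were 0.980 to 0.987 between null arrays and 0.994 to 0.995 between control arrays. Null 3 correlated with control 1, control 2 and control 3 at 0.990, 0.989 and 0.990, but with null 1 and null 2 at 0.980 and 0.985. Null 1 gave 0.982, 0.979 and 0.980 with the same controls, and null 2 gave 0.986, 0.984 and 0.985. Null 3 thus stood nearer to the controls than null 1 and null 2 did, over all probe sets and in epithelial genes. The targeted genes do not check the labels, since the disrupted part of each is not given: Hoxb6 read 8.25, 8.71 and 8.91 in null arrays against 8.78, 8.97 and 9.36 in control arrays, Hoxc6 gave changes of +0.13, +0.47 and +0.73 on its 3 probe sets, and Hoxa6 was not analysed here. None of these passed over all probe sets (limma, adjusted p of 0.393 for Hoxb6 and 0.253 to 0.551 for Hoxc6). The array controls for RNA length, the 3′ minus the 5′ log2 signal, were -0.24 to -0.13 for Actb and 0.85 to 1.01 for Gapdh in null arrays, and -0.14 to -0.06 and 1.003 to 1.033 in control arrays, and their part in the values of the long laminin transcripts was not tested.

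Lama2, the alpha chain of mesenchyme, muscle and nerve, had the most negative change of the members. It read 5.60, 5.44 and 5.58 in Hox6 null arrays and 6.51, 6.45 and 5.90 in control arrays on probe set 1426285_at, its only one. The 3 null arrays sat within 0.2 of each other, below all 3 controls, of which control 3 was the lowest. The change was -0.75 ± 0.17 (SE), or 1.68-fold lower, with a 95% interval from -1.15 to -0.34 and an adjusted p of 0.205 (limma over all probe sets). Without control 3 it was -0.94 and without any other single array between -0.63 and -0.78, and in none of these fits did it pass. The probe set is of moderate signal, brighter than 49.0% of all probe sets, so that background may compress its difference.

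Lama4, the alpha chain of vessel walls, was lower in null 1 and null 2 only. Its brighter probe set, 1424807_at, read 7.47, 7.50 and 7.80 in Hox6 null arrays and 7.86, 7.79 and 7.95 in control arrays. Null 3 lay among the controls, and the other 2 null arrays below all of them. The change was -0.28 ± 0.13 (SE) with an adjusted p of 0.357, and the dimmer probe set 1424808_at gave -0.33 ± 0.19 (SE), adjusted p of 0.449, with overlapping arrays (limma over all probe sets). Without null 3 the brighter probe set stood at -0.38 with an adjusted p of 0.0672 (limma, 1 probe set a gene).

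The nidogens, which link laminin to type IV collagen, were lower in all null arrays. Nid1 read 10.61, 10.50 and 11.00 in Hox6 null arrays and 11.25, 11.15 and 11.14 in control arrays on its brightest probe set, 1448469_at. Null 3 was the closest of the null arrays to the controls but still below each of them. The change was -0.48 ± 0.15 (SE), or 1.39-fold lower, with an adjusted p of 0.253 (limma over all probe sets).

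The other probe sets of Nid1 pointed the same way. Probe set 1416808_at read 9.91, 10.08 and 10.36 in null arrays against 10.66, 10.40 and 10.46 in control arrays, again without overlap, a change of -0.39 ± 0.15 (SE) with an adjusted p of 0.295. Probe set 1441519_at, at 3.71 to 4.32 in null arrays and 4.25 to 4.28 in control arrays, is dim and gave -0.32 ± 0.17 (SE) with overlap and an adjusted p of 0.411 (limma over all probe sets for both). Nid1 was the only member that passed in any of the alternative fits: without null 3 its change was -0.63 ± 0.10 (SE) with an adjusted p of 0.0212 (limma, 1 probe set a gene), in a fit in which 4.02% of all genes passed as lower, 4.42% as higher and 8.44% in either direction.

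Nid2, the second nidogen, read 8.56, 9.05 and 9.09 in Hox6 null arrays and 9.36, 9.40 and 9.55 in control arrays on its only probe set, 1423516_a_at. The groups did not overlap, and null 1 stood lowest, away from the other null arrays. The change was -0.54 ± 0.16 (SE), or 1.45-fold lower, with a 95% interval from -0.91 to -0.16 and an adjusted p of 0.245 (limma over all probe sets). Across both nidogens the mean deviation from the control mean was -0.72, -0.54 and -0.26 in null 1, null 2 and null 3, against -0.03 to 0.03 in control arrays.

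Lama1, the alpha chain of the earliest embryonic epithelia, showed no difference beyond the spread of its arrays. It read 8.20, 8.03 and 8.14 in Hox6 null arrays and 8.14, 8.01 and 8.36 in control arrays (1418153_at). All 3 null values fell inside the control range, and the 95% interval of the change, -0.34 to 0.24, leaves room for a modest difference either way (adjusted p of 0.862, limma over all probe sets).

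Lama5, the alpha chain of maturing epithelia, differed among the null arrays more than between the groups. On probe set 1427010_s_at it read 8.81, 8.03 and 7.98 in Hox6 null arrays and 8.24, 8.27 and 8.16 in control arrays. Null 1 stood above all controls and the other null arrays below all of them, so that the mean change of +0.05 ± 0.22 (SE), adjusted p of 0.928, rests on null 1: without it the change was -0.22 with an adjusted p of 0.380 (limma, 1 probe set a gene). Probe set 1427009_at showed the same high value in null 1, with 7.93, 7.39 and 7.29 in null arrays and 7.39, 7.46 and 7.47 in control arrays. The last probe set, 1459614_at, read 2.90 to 4.38 over all arrays, where differences carry little weight, and its highest array was null 2, not null 1.

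Among the partner chains Lamc1, the gamma chain of most laminins, followed Lama5 in null 1. Probe set 1423885_at read 10.46, 10.12 and 9.86 in Hox6 null arrays and 10.04, 10.09 and 9.99 in control arrays, with null 1 highest, null 3 lowest and a change of +0.11 ± 0.16 (SE). Its direction rests on null 1: the change was -0.048 without that array and 0.25 without null 3, and -0.22 with the epithelial marker level as a covariate. Probe set 1423886_at read 10.17, 10.06 and 9.96 against 9.89, 9.93 and 9.81, with every null array above every control, a change of +0.19 ± 0.11 (SE). Neither passed (adjusted p of 0.760 and 0.435, limma over all probe sets).

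Lamb2, the beta chain known from vascular smooth muscle and synapses, read 7.99, 7.74 and 7.85 in Hox6 null arrays and 7.54, 7.79 and 7.67 in control arrays (1416513_at), with overlap and an adjusted p of 0.463. Lamb1, the widespread beta chain, read 9.97, 10.09 and 9.96 in null arrays and 10.06, 9.98 and 10.20 in control arrays on its brightest probe set, 1424114_s_at, whose suffix marks probes that several transcripts can share. The groups overlapped there (adjusted p of 0.764). The other 3 probe sets of Lamb1 also had negative changes, of -0.15, -0.03 and -0.40. Of these, 1424113_at read 9.12 to 9.28 in null arrays and 9.34 to 9.39 in control arrays, and the dimmer 1446180_at read 5.25 to 5.64 and 5.76 to 6.04, both with no overlap, at adjusted p of 0.502 and 0.280 (limma over all probe sets for each).

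**Figure D2:**
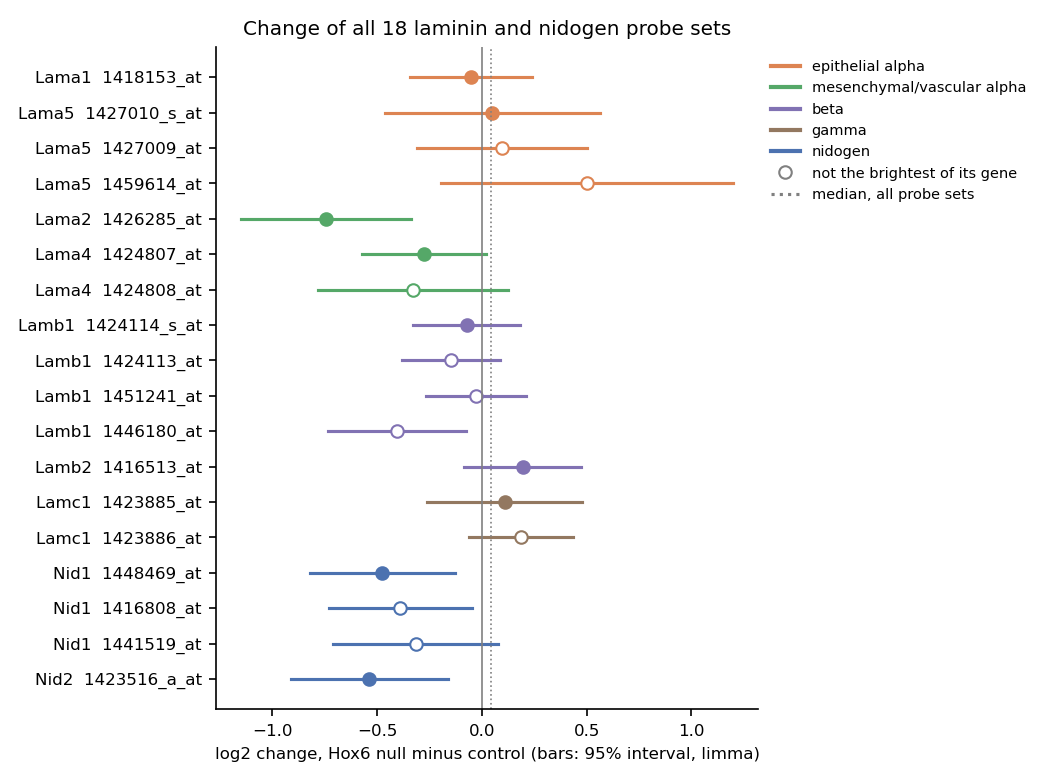
Log2 change, Hox6 null minus control (horizontal axis), of each of the 18 laminin and nidogen probe sets, with 95% intervals from limma. Filled points mark the brightest probe set of a gene, the solid line marks 0 and the dotted line the median of all probe sets. The intervals of Lama2, Nid2, 2 probe sets of Nid1 and 1 dim probe set of Lamb1 lie below 0.

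The chains were then set against each other within each array, as deviations from the control mean. For the epithelial chains Lama1 and Lama5 together the mean deviation was 0.31, -0.17 and -0.14 in null 1, null 2 and null 3, and -0.06 to 0.06 in control arrays. For the mesenchymal and vascular chains Lama2 and Lama4 it was -0.54, -0.61 and -0.38 in the null arrays, and -0.15 to 0.11 in control arrays. The difference, epithelial minus mesenchymal and vascular, was thus 0.85, 0.44 and 0.25 in null 1, null 2 and null 3, against -0.11, -0.10 and 0.21 in control 1, control 2 and control 3. Every null array lay above every control array, null 3 only narrowly above control 3. The null mean was 0.51 ± 0.31 (SD, n = 3) and the control mean 0 by construction, with an SD of 0.18 (n = 3). In null 1 Lama5 stood at 0.59, Lama2 at -0.69 and Lama4 at -0.40, so that both sides contributed to the difference there. In null 2 and null 3 the epithelial chains lay below the control mean, and the difference came from the lower values of Lama2 and, less so in null 3, Lama4.

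Marker genes of the tissues that make these chains were read in the same arrays. Of 20 epithelial and 11 measured pancreatic progenitor markers 0 passed over all genes (limma, adjusted p under 0.05). At an unadjusted p under 0.05 in that fit, 10 and 7 were higher. The share set beside them, 8.17% higher among all probe sets, comes from the fit over probe sets and not from that over genes. Of the epithelial markers 18 had a positive change with a median of +0.60, led by Cldn4, Ehf and Spint1, and their mean level was 8.96, 8.82 and 8.04 in null 1, null 2 and null 3 and 7.96 to 8.06 in control arrays, so that null 3 lay among the controls. All 11 progenitor markers had a positive change, with a median of +0.77, Nkx6-1, Pdx1 and Mnx1 foremost, and a mean level of 8.21 to 9.28 against 7.88 to 8.25. The median deviation of epithelial markers in null 1, null 2 and null 3 was 0.95, 0.90 and 0.03, beside 0.02, -0.15 and -0.03 for Lama1 and 0.59, -0.20 and -0.24 for Lama5. In null 1 Lama5 was thus high together with the markers and Lama1 near the control mean, while in null 2, where the markers were also high, both chains read below the control mean. The difference between chains and markers was not tested.

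The mean levels of the vessel and stroma lists were lower in each null array than in any control array, though single markers did not all follow. All 18 endothelial markers were negative with a median of -0.56, of which Tek and Clec14a passed over all genes and Ramp2 followed (limma, adjusted p of 0.0417 for each of the first pair and 0.0711; 0.0715% of all genes passed), at mean levels of 7.63 to 8.03 in null arrays and 8.29 to 8.42 in control arrays. Of 18 mesenchymal markers 16 were negative with a median of -0.37, led by Dcn, Twist1 and Lum, at 8.52 to 8.89 against 9.13 to 9.18. In null 3 the mesenchymal genes Foxf1 and Barx1, named after their values were seen, read 8.80 and 10.70, above control ranges of 8.33 to 8.74 and 9.52 to 10.02, and Isl1 lay above the controls in all null arrays. Of 11 pericyte and smooth muscle markers 10 were negative (median -0.31, led by Acta2, Actg2 and Rgs5), at 7.40 to 7.46 against 7.66 to 7.88. Of 8 mesothelial markers 7 were negative (median -1.14, led by Muc16, Upk1b and Upk3b), at 5.77 to 6.46 against 6.99 to 7.20. Of the mesenchymal, pericyte and mesothelial markers 0 passed, with 7, 4 and 7 lower at an unadjusted p under 0.05 (limma), beside 8.24% lower among all genes.

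Lists of other cell types complete this check. All 10 macrophage markers were negative (median -0.74), with Ctss and Adgre1 past the threshold and Lyz2 next, at 7.64 to 8.03 in null arrays and 8.52 to 8.65 in control arrays. The endothelial and macrophage calls ended with the replicate number as a block, and when control 2, control 3, null 1 or null 2 was left out, fits in which 0 of all genes passed. With quantile normalization repeated 1 of all genes passed, and without control 1 there were 2, so that not all of these calls can hold there. Of 5 measured neural crest and Schwann cell precursor markers 4 were positive (median +0.28, led by Sox10, Erbb3 and Ret), at 7.08 to 7.16 against 6.80 to 6.95. Of 10 liver and gut markers 7 were positive (median +0.09, with Vil1, Alb and Cdx2 first by p), at 6.71 to 6.91 against 6.32 to 7.45. Among these the liver gene Alb read 6.44 to 8.02 in null arrays and 7.25 to 10.60 in control arrays, with control 2 far above the rest. Sox2 of the same list read 5.40 in null 3, against 2.57 and 2.70 in null 1 and null 2 and 2.54 to 3.12 in control arrays. RMA values have no 0, so that no marker can be called absent. In whole tissue, fewer cells of a type and less RNA per cell cannot be told apart, and the part of these cell types in the laminin and nidogen values was not tested beyond 1 fit. That fit took the mean epithelial marker level as a covariate, which was chosen with earlier results of these data known, and it gave -0.73 for Lama2, -0.06 for Lama4, -0.18 for Nid1 and -0.30 for Nid2, with adjusted p of 0.367 to 0.924 (limma, 1 probe set a gene). Lama2 thus went from -0.75 ± 0.17 to -0.73 ± 0.25 (SE), and the changes of Lama4, Nid1 and Nid2 were smaller in size than in the main fit. The covariate held epithelial genes alone, for which null 3 lay among the controls. It cannot stand for mesenchymal, pericyte or mesothelial levels, and the part of those was not tested.

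**Figure D3:**
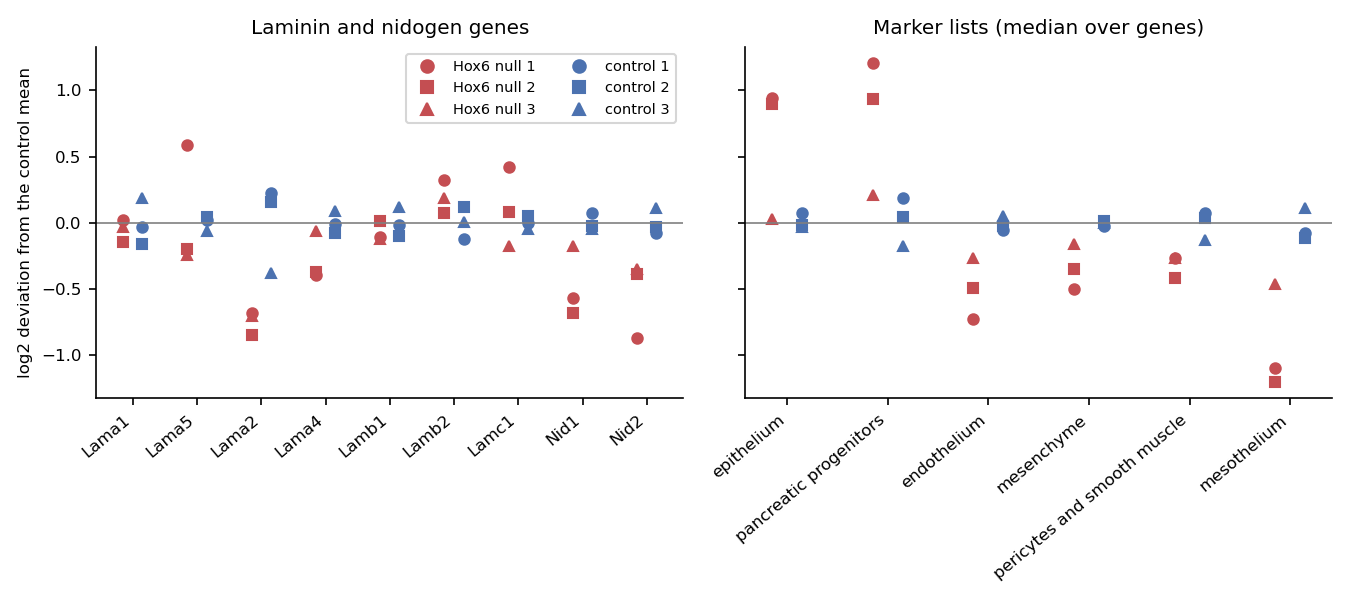
Log2 deviation from the control mean (vertical axis) of the 9 laminin and nidogen genes (left panel) and of marker lists as the median over genes (right panel), for each Hox6 null array (red) and control array (blue), with a marker shape for each replicate number. Epithelial lists are high in null 1 and null 2, where Lama1 is at 0.02 and -0.15 and Lama5 at 0.59 and -0.20, and Lama2 is low in all 3 null arrays.

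Promoters from RefSeq (GRCm38.p6), reaching from 250 bases before to 50 after the annotated start, were at hand for 5 of the 9 members: Lama5, Lama2, Lamb1, Lamb2 and Nid1. Those of Lama2 and Nid1 are printed because both genes read lower in all 3 null arrays, and that of Lama5 as an epithelial chain that did not, a choice made after the values were seen. They lie at chr10:27616893-27617192 (minus strand), chr13:13437352-13437651 (plus strand) and chr2:180225810-180226109 (minus strand). Capitals mark matches, on either strand, to the GC box GGGCGG and the CCAAT box CCAAT.
Lama2: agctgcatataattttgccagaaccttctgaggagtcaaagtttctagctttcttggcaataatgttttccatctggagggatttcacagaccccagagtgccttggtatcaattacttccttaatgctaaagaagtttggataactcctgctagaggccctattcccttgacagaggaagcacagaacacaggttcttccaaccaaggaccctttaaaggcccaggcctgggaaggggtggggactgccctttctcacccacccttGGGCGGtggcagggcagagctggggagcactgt
Nid1: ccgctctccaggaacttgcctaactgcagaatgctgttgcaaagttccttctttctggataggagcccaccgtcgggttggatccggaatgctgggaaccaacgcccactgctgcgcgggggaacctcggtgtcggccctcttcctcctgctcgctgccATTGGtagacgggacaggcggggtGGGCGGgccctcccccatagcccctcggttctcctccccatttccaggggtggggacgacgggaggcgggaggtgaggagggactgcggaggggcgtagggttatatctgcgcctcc
Lama5: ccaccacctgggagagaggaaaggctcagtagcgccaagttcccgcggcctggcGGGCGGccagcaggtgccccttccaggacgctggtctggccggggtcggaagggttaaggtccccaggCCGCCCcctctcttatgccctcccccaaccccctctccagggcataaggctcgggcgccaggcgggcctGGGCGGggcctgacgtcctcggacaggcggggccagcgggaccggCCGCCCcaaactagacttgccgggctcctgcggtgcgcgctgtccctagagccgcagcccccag
The window of Lama2 was 50.3% G and C with 1 CpG, against 64.7% with 20 CpGs for Nid1 and 72.7% with 24 for Lama5, where the median of 32851 promoters was 52.7% with 7 CpGs. The windows of Lama2 and Nid1 thus differed in base composition. Nid2, which also read lower in all null arrays, had no window, and a relation of composition to the changes was not tested. GC boxes were found 1 time in Lama2, 1 time in Nid1 and 4 times in Lama5, and 4 of the 5 member windows held at least 1, beside 35.7% of all promoters. A CCAAT box was found in Nid1 and Lamb1, beside 37.4% of all promoters. The TATA box TATAAA (13.6% of all promoters), the homeodomain letters TAATTA (5.29%) and the Hox and Pbx letters TGATTNAT (3.22%) had 0 matches in the 5 windows, which says only that these letters are not in them. No matches to different motifs overlapped in these windows.

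Type IV collagens, the other network of the basement membrane, did not pass either. Of 6 genes 0 passed, 5 were negative and the median was -0.15. Null arrays were below all controls for 2 of the 6 and above them for 0, beside 11.7% and 12.2% of all genes. Col4a1 and Col4a2, the chains of nearly every basement membrane, had null arrays below all controls: Col4a1 read 10.87, 10.76 and 10.89 in Hox6 null arrays against 11.01, 11.12 and 11.01 in control arrays (-0.21 ± 0.09, SE), and Col4a2 read 9.95, 9.84 and 9.96 against 10.08, 10.04 and 10.13 (-0.17 ± 0.09, SE). These differences are small beside those of the nidogens, which bind the same network, though that contrast was not tested. Col4a5 and Col4a6 stood at -0.08 and -0.28, and Col4a4 and Col4a3, both dim, at -0.13 and +0.30, all with overlapping arrays. The adjusted p of the 6 genes lay between 0.287 and 0.746 (limma, 1 probe set a gene).

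Other basement membrane components held the most negative value of the basement membrane and receptor lists. Of 21 genes 0 passed, 15 were negative and the median was -0.07, with 6 genes apart below the controls and 1 above, beside 11.7% below and 12.2% above among all genes. Hmcn1, encoding hemicentin, a giant matrix protein that joins basement membranes, read 4.35, 4.21 and 5.11 in Hox6 null arrays and 6.30, 6.32 and 6.40 in control arrays. The 3 null arrays lay far below the controls, with null 3 the nearest, and the change was -1.79 ± 0.23 (SE) with an adjusted p of 0.0698 (limma, 1 probe set a gene). Null 1 and null 2 were near the lower quartiles of their arrays, 4.32 and 4.24, where background can compress a difference, so that its size is uncertain. Frem1, a protein of the epithelial and mesenchymal junction, stood at -0.73 ± 0.17 (SE) and Ecm1 at -0.81 ± 0.18 (SE). Fbln2, a fibulin that binds laminin and nidogen, stood at -0.79 ± 0.19 (SE), with 1 of its 2 probe sets of the other sign. Col15a1, a collagen of vessel and muscle basement membranes, stood at -0.47 ± 0.18 (SE). Frem1, Ecm1, Fbln2 and Col15a1 had adjusted p of 0.157 to 0.269 (limma, 1 probe set a gene). Ntn1, the guidance factor netrin with a laminin-like domain, was the gene above all controls: 6.27, 5.97 and 7.33 in null arrays against 5.61, 5.74 and 5.28 in control arrays, +0.98 ± 0.34 (SE), adjusted p of 0.241. Without null 3, 5 genes of this list passed: Hmcn1 at -2.06, Frem1 at -0.91, Ecm1 at -0.88 and Col15a1 at -0.66 were lower and Smoc1, a matricellular calcium-binding protein, was higher at +0.92 (limma, adjusted p of 0.00541 to 0.0423), in the fit in which 8.44% of all genes passed.

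**Figure D4:**
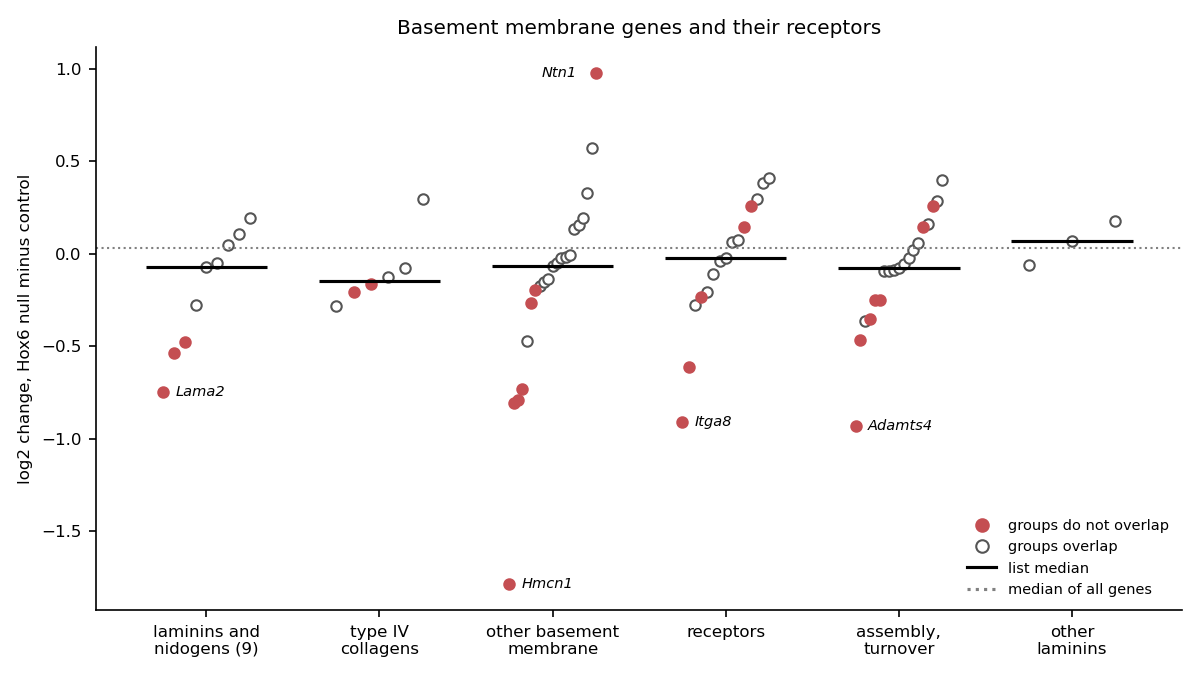
Log2 change, Hox6 null minus control (vertical axis), of each gene in the lists of basement membrane genes and receptors (horizontal axis), sorted within a list. Filled points have null and control arrays apart, black lines are list medians and the dotted line is the median of all genes, +0.03. All list medians but that of the 3 other laminins lie below 0, and Hmcn1 at -1.79 is the lowest of the genes plotted.

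Receptors were mixed in direction. Of 15 genes 0 passed, 8 were negative and the median was -0.02. Apart from the controls were 3 genes below and 2 above, beside 11.7% below and 12.2% above among all genes. The 2 above were Itga6 and the dystroglycan gene Dag1, which stood at +0.15 ± 0.10 (SE). Itga1, the alpha chain of a collagen and laminin integrin of stroma and vessels, read 6.0, 5.84 and 6.17 in Hox6 null arrays against 6.78, 6.29 and 6.78 in control arrays (-0.61 ± 0.16, SE, adjusted p of 0.182). Itga8, the mesenchymal integrin chain that binds nephronectin, read 9.15, 9.55 and 10.41 against 10.59, 10.43 and 10.82, null 3 only just below the controls (-0.91 ± 0.30, SE, adjusted p of 0.232). Itga6, the laminin integrin chain of epithelia, had all null arrays above the controls at 9.43, 9.12 and 9.09 against 9.01, 8.99 and 8.85 (+0.26 ± 0.12, SE, adjusted p of 0.328). The syndecan Sdc4 stood at +0.41, and Itga2 and the syndecan Sdc3 at -0.28 and -0.23, the last with 1 of its 3 probe sets in this direction. Without null 3, Itga8 passed as lower (-1.26) and Sdc4 as higher (+0.59), with adjusted p of 0.0129 and 0.0446 (limma, 1 probe set a gene, for each of these values). These are 2 of 15 genes, beside 8.44% of all genes in that fit.

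Genes of dystroglycan glycosylation and of basement membrane assembly and turnover gave 0 of 19 past the threshold, with 12 negative and a median of -0.07. The inhibitors of metalloproteases Timp1, Timp2 and Timp3 stood at -0.25, -0.35 and -0.47, the membrane metalloprotease Mmp14 at -0.25 and the proteoglycan-cleaving Adamts4 at -0.93 ± 0.21 (SE), all 5 with null arrays below all controls and adjusted p of 0.160 to 0.259. Other proteases of the list had other values: Adamts1 stood at +0.40, Adamts9 at +0.29 and Mmp9 at -0.07, all with overlapping arrays. Bmp1 stood at +0.15 with null arrays above all controls. Only 1 of the 3 probe sets of Bmp1 and 1 of the 2 of Mmp9 had the sign given. In all, 5 of the 19 genes were apart below the controls and 2 above, beside 11.7% and 12.2% of all genes. Without null 3 Adamts4 (-1.14) and Mmp2 (-0.56), a type IV collagenase, passed as lower and Adamts1 (+0.58) as higher, with adjusted p of 0.0153 to 0.0278 (limma, 1 probe set a gene), which are 3 of 19 genes, beside 8.44% of all genes in that fit. The laminin chains of stratified epithelium and of rarer trimers read low in all arrays: Lama3 stood at 4.17 to 4.84 in null and 4.21 to 4.44 in control arrays, Lamb3 at 4.90 to 5.09 and 4.72 to 5.08, and Lamc3 at 4.68 to 5.19 and 4.92 to 5.11, with overlap for each and 0 of 3 past the threshold.

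Genes with the most similar profile to Lama1, Lama5 and Lama4 were looked up (Lama2 was not) among 3002 genes of at least median level and a range of at least 0.5 over the 6 arrays. Likeness was the root mean square difference between log2 values centred over the arrays. Nearest to Lama4 were Kif26a, an atypical kinesin (0.024), Etaa1, an activator of the replication stress kinase (0.034), and Arhgap18, a GTPase-activating protein (0.036). Nearest to Lama5 were Nkrf, a transcriptional repressor (0.075), Egflam, a matrix protein with laminin G domains (0.076), and Tgm2, a transglutaminase (0.079), all with null 1 highest. Nearest to Lama1 were Ubxn8 (0.071), Mbnl3, an RNA-binding protein (0.083), and Nkain1 (0.087). With 6 arrays and this many genes such neighbours describe the profile and nothing more.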

How the data were processed

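Log2 expression values were deposited by the authors for 6 arrays, 1 column a sample. The submitters' processing notes name RMA, affy and limma, without versions, and the genome build is not given in the sources used here. Values are thus relative to the set of arrays, and their number limits the precision. Samples were grouped by title.

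Symbols came from the platform annotation: 34945 had 1 symbol, 932 several and 9160 none, and 64 array controls were left out. Genotype was fitted with limma 3.58.1 in R 4.3.3, as a two-sided test at an adjusted p (Benjamini-Hochberg) of 0.05, over 45037 probe sets and over 18193 genes, each represented by its probe set of highest mean. The calculation was tested on simulated data with the spread of each gene. Of 100 genes given a log2 change of 1 in size, 61 passed, and of 100 given a change of 2, 91 passed, with 6 false calls. All member changes were smaller than 1 in size, so that a member that did not pass may still differ. With 3 against 3 arrays an exact permutation test reaches 0.1 at best and was not used.

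Members and gene lists were chosen with earlier results of these data known, so counts are described without set tests. Named genes are all members, the targeted genes, up to 6 of each basement membrane list and up to 3 of each marker list by smallest p, those past the threshold, and profile neighbours. Mmp2, Smoc1, Adamts9, Bmp1, Mmp9, Foxf1, Barx1, Isl1 and Sox2 were named after their values were seen. Same-numbered arrays deviated together with correlations of 0.14, 0.005 and 0.06, against -0.13 to 0.05 for differently numbered arrays. Each null array correlated most with the control of its own number, so these values do not settle whether arrays were paired. Replicate numbers were not taken as pairs in the main fit, and a replicate block was run as an alternative. Alternatives were a filter on dim probe sets, repeated quantile normalization, median centring, an intensity trend with robust prior, array weights, a replicate block, an epithelial covariate, means over probe sets and each array left out.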

Additional observations from a re-analysis of the deposited data

How the results depend on the processing

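Of 125 refitted member changes (1 probe set a gene, 14 alternatives) 119 kept their sign. Lama2, Lama4, Lamb1, Lamb2, Nid1 and Nid2 kept it in all of theirs. Lama5 reversed with array weights (-0.031) and with the epithelial covariate (-0.32), in a range of -0.22 to 0.20 when arrays were left out. Lamc1 reversed with that covariate (-0.22) and ranged from -0.048 to 0.25 with arrays left out, and Lama1 from -0.13 to 0.044. Calls among members were 0 under the alternatives with all arrays, the replicate block included (0 of 9 genes and 0 of 18 probe sets), and 0 to 1 with an array left out, both for genes and for probe sets. Epithelial minus mesenchymal and vascular chains ranged from 0.34 to 0.64 with an array left out. Lama2 is lost under the filter on dim probe sets, so that this difference was not run there.

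Over all genes 13 passed, 1 higher and 12 lower, against 16 with the epithelial covariate, 12 higher and 4 lower. There were 37 with the filter on dim probe sets, 1 with repeated quantile normalization, 8 with median centring, 74 with trend and robust prior, 155 with array weights, 0 with the replicate block (1 among probe sets), 2 when control 1 was left out, 1536 when null 3 was, and 0 when any of the other 4 arrays was. Over all probe sets 1 passed, and 16 with the filter, 0 with quantile normalization, 63 with trend and robust prior, 41 with array weights, 10 with the covariate and 0 to 1902 with an array left out. The cause was not tested.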
